A study of Mus musculus with 6 samples.

Results

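miR-143 and miR-145 are microRNAs made from neighbouring genes and are best known as the microRNAs of smooth muscle. Their levels were followed here in sorted mouse skin and wound cells. Members were chosen by name, as every miRNA name on the array whose stem was miR-143, miR-145, miR-145a or miR-145b. Of 690 miRNA names 3 qualified: mmu-miR-143-3p and mmu-miR-145a-5p, the arms known as the main products of their precursors, and mmu-miR-145a-3p, the minor arm of miR-145a. The prefix mmu, for mouse, is left out below. The other arm of miR-143 and miR-145b had no name among the 690.

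The cells came from transgenic SMA-GFP mice, in which the smooth muscle actin (SMA) promoter drives green fluorescent protein. The tested cells were high in GFP, were labelled myofibroblasts and were sorted from wounds 7 days after injury. They were set against cells low in GFP, labelled fibroblast-like, from the dermis. Both sorts left out blood cells (CD45+) and endothelial cells (CD31+), and each group had 3 preparations of total RNA on 1 array each, named by the numbers in their labels: wound 3, 4 and 6, and skin 1, 2 and 5. Age and strain were not given in the sources used here, nor was whether a group's preparations were taken from different animals. The p-values below therefore measure the spread between preparations, part of which may be technical. SMA is also made by vascular smooth muscle cells and pericytes, which carry neither CD45 nor CD31, so the sort does not separate them from myofibroblasts. The arrays do not measure SMA messenger RNA, and the labelled cell types were not checked against it. Tissue, injury and GFP level changed together and cannot be told apart. In sorted bulk RNA, more cells with a miRNA and more of it per cell cannot be told apart either.

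MicroRNAs are short RNAs that pair through their seed, near the 5′ end, with messenger RNAs and lower their output. miR-143 and miR-145 are known to be switched on with the contractile programme, by serum response factor with its cofactor myocardin and by TGF-beta signalling. miR-145 is known to target Klf4 and Klf5, transcription factors that oppose the contractile state, and miR-143 to target Elk1, a factor that competes with myocardin. Mice without both develop thin-walled, poorly contractile arteries. In the RefSeq gene table of assembly GRCm38.p6, Mir143 and Mir145a lie on chromosome 18 with 0 annotated genes between them, both inside the gene of the long noncoding RNA Carmn.

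The arrays gave background-subtracted intensities. Levels are log2 values of the signal divided by the 75th percentile of its array, taken over probes well above background on all 6 arrays, and raised to a common floor of -5.30. On this scale a level of 0 equals that percentile. The percentile itself was 786 to 1136 intensity units on wound arrays and 1244 to 1772 on skin arrays, with no overlap (exact two-sided permutation test, p = 0.1, the smallest that 3 against 3 arrays allow). Differences are therefore also given relative to the median difference of all 222 tested miRNAs, which was 0.38. The authors' deposited table numbers its columns otherwise than the array titles. Its columns 1, 2 and 3 hold the values of wound arrays 3, 4 and 6, and its columns 4, 5 and 6 those of skin arrays 1, 2 and 5. Groups below follow the titles. Read by its column numbers instead, the authors' deposited table gave differences of -0.25 for miR-143-3p and -0.91 for miR-145a-5p (limma adjusted p = 0.935 each), and limma called 0 of 202 miRNAs, with 1 at an unadjusted p under 0.05.

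Both miR-143-3p and miR-145a-5p were higher in the wound cells, and miR-145a-3p was not detected in either group. miR-143-3p was measured well above background on every array and was 2.37-fold higher by the reported scaling, the largest value among 5 scalings that gave 1.47-fold to 2.37-fold. Its call was lost with normexp background correction (limma adjusted p = 0.073). miR-145a-5p lay close to the limit of detection, and the size and the call of its difference depended on the processing. By the reported processing 2 of the 2 tested members passed, where 44.1% of all tested miRNAs were called higher and 64.9% were called in either direction, so that passing the test does not set the members apart. miR-145a-5p entered the test only through the wound arrays, the group where it was higher. It was not tested when detection on every array was required.

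miR-143-3p had levels of -1.36, -1.35 and -1.40 on wound arrays 3, 4 and 6, against -2.70, -2.53 and -2.60 on skin arrays 1, 2 and 5. The 3 wound arrays lay close together and all stood above every skin array. Such a separation was found for 48.6% of tested miRNAs with wound above skin, and for 69.8% in either direction. The means were -1.37 ± 0.03 in wound cells and -2.61 ± 0.09 in skin cells (SD, n = 3 each). Their difference was 1.24 on the log2 scale (SE 0.06, 95% interval 1.10 to 1.38, Benjamini-Hochberg adjusted p = 2.7e-05 in limma), which is 0.86 above the median difference of all tested miRNAs. A larger increase was found for 48 of the 222 tested miRNAs.

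**Figure D1:**
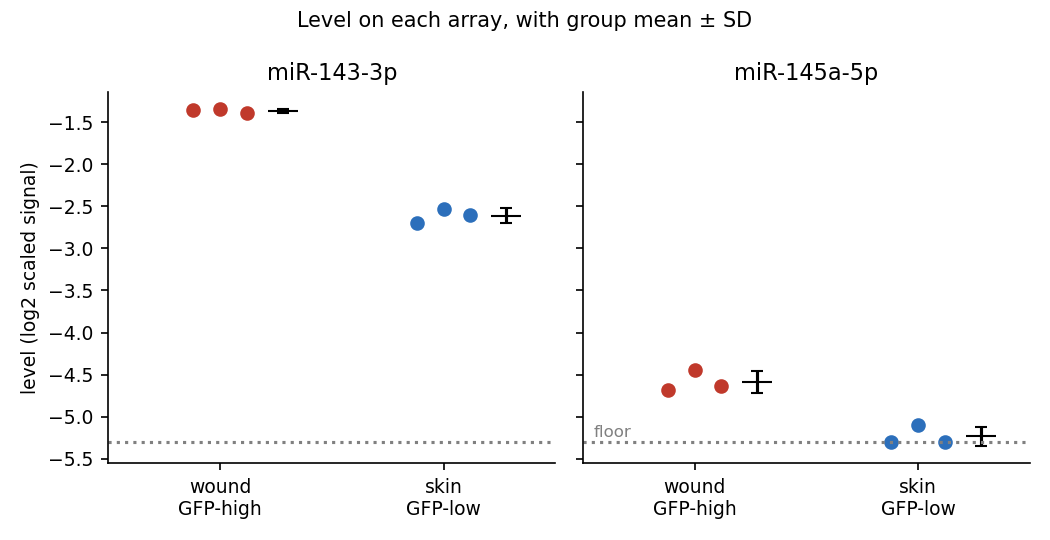
Level of miR-143-3p (left) and miR-145a-5p (right) on each array, as the log2 of the scaled signal; points are single arrays, the black bar and whiskers are the group mean ± SD (n = 3), and the dotted line is the floor at -5.30. The wound arrays lie above the skin arrays for both, and 2 of the 3 skin values of miR-145a-5p lie on the floor.

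The increase of miR-143-3p was also visible before any scaling. Agilent's total signal for miR-143-3p was 351, 503 and 498 intensity units on wound arrays 3, 4 and 6, against 269, 248 and 335 on skin arrays 1, 2 and 5. The lowest wound value stood above the highest skin value, although the gap between wound 3 and skin 5 was small. Both arrays with the highest skin percentiles, skin 1 and skin 5, also had the higher unscaled miR-143-3p signals of their group, and after scaling the 3 skin levels lay close together.

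Each tested member was read by 2 probes with 10 spots a probe on every array. For miR-143-3p, probe A_54_P2404 averaged 242, 343 and 323 intensity units on wound arrays 3, 4 and 6, against 193, 165 and 225 on skin arrays 1, 2 and 5. Probe A_54_P2405 averaged 371, 518 and 540 units on the wound arrays, against 265, 267 and 358 on the skin arrays. Neither probe overlapped between the groups before scaling. Taken alone, A_54_P2404 gave a difference of 1.22 (SE 0.05, limma adjusted p = 2.0e-05) and A_54_P2405 one of 1.26 (SE 0.08, limma adjusted p = 9.1e-05), so the 2 probes differed by less than their errors.

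The spots of miR-143-3p were uneven on 1 array. The coefficient of variation over spots without outlier flags was 49.8% for A_54_P2404 on skin array 1, where spots ran from 72.8 to 354 units and a flagged spot read 783. On the other arrays that probe varied by 2.02% to 13.3%, and A_54_P2405 varied by 5.07% to 16.7% over all 6. Keeping the flagged spots gave a difference of 1.25, and the median over all spots gave 1.30, both chosen after the data were seen. Leaving out any 1 array gave 1.20 to 1.28.

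**Figure D2:**
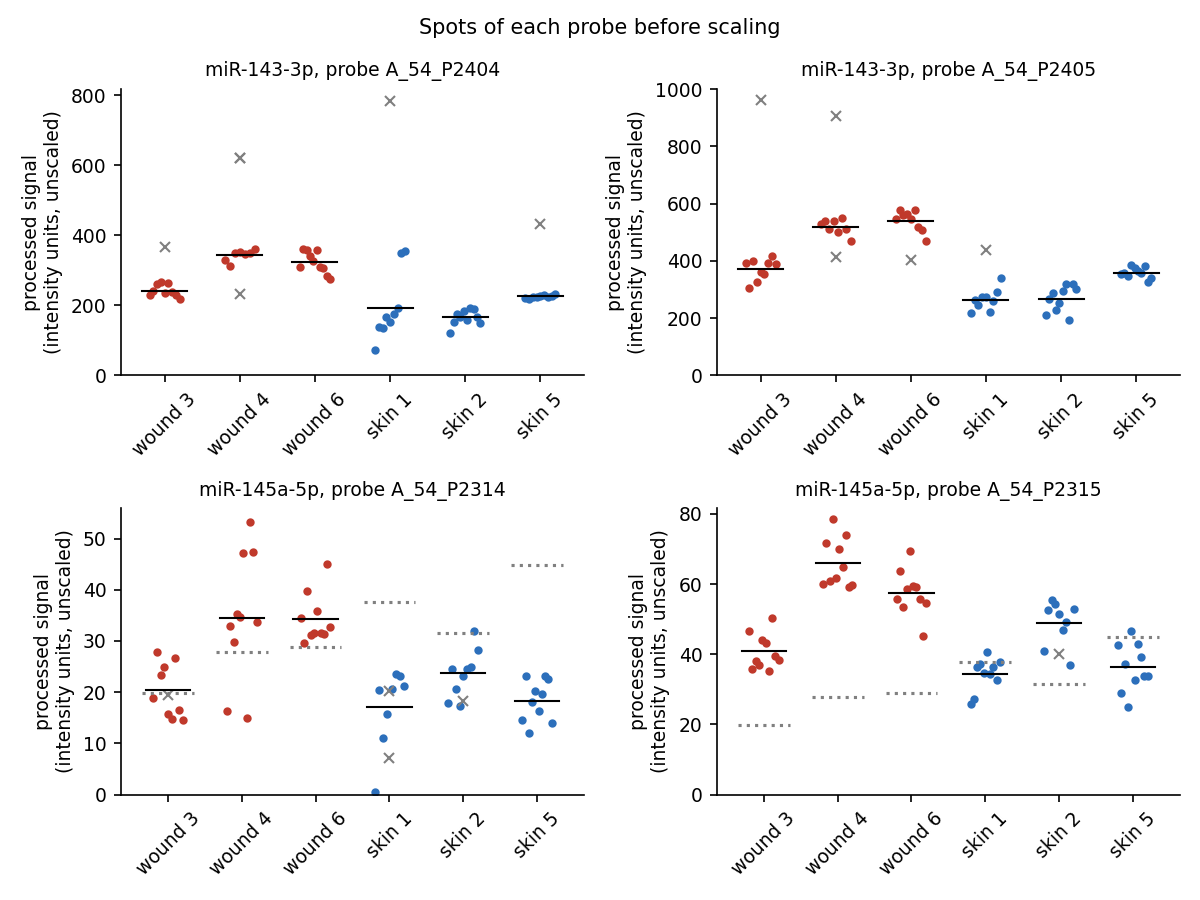
Processed signal, in intensity units before scaling, of every spot of the 2 probes of miR-143-3p (top) and of miR-145a-5p (bottom) on each array; dots are spots used, crosses are spots with an outlier flag, black bars are the means used, and dotted bars in the lower panels are the floor in the units of that array. Wound means of miR-143-3p lie above all skin means in both probes, and the skin means of miR-145a-5p lie below the floor except that of A_54_P2315 on skin array 2, which lies above it.

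The size of the miR-143-3p increase depended on how arrays were scaled. Under the reported scaling and 4 others the difference ran from 0.56 to 1.24, that is from 1.47-fold to 2.37-fold, and the test was passed in 5 of 5 (limma adjusted p up to 0.042). Set against the median difference of all tested miRNAs, it ran from 0.75 to 0.86 in these 5. With normexp background correction the difference was 1.33, but with an SE of 0.41 it no longer passed (limma adjusted p = 0.073), and it lay 0.30 above the median of all tested miRNAs, which was 1.03 there. By row of the slide it was 1.25 in the first row (1 wound and 2 skin arrays) and 1.23 in the second row (2 wound arrays and 1 skin array).

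miR-145a-5p, the partner of miR-143-3p, was read close to the limit of detection. Its levels were -4.68, -4.44 and -4.63 on wound arrays 3, 4 and 6, against -5.30, -5.10 and -5.30 on skin arrays 1, 2 and 5, where -5.30 is the floor. It was well above background on 3 of 3 wound arrays and on 2 of 3 skin arrays. The groups did not overlap by the reported scaling, which held for 48.6% of tested miRNAs with wound above skin. Over 5 scalings they were apart in 2. The means were -4.59 ± 0.13 in wound cells and -5.23 ± 0.12 in skin cells (SD, n = 3 each), a difference of 0.65 or 1.57-fold (SE 0.09, 95% interval 0.41 to 0.89, limma adjusted p = 0.0026). It lay 0.27 above the median difference of all tested miRNAs, and 84 of the 222 had a larger one. The values of skin arrays 1 and 5 were set to the floor, which bounds this difference. The skin SD, the SE, the interval and the p-value therefore do not fully measure the spread between preparations. With a floor 4 times lower the skin SD was 0.49 and the difference 1.07 (SE 0.25).

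Before scaling, the groups of miR-145a-5p overlapped. Probe A_54_P2315 averaged 40.8, 66.0 and 57.5 intensity units on wound arrays 3, 4 and 6, against 34.3, 48.9 and 36.3 on skin arrays 1, 2 and 5. Skin 2 thus stood above wound 3, whose array had the lowest scaling percentile of the 6. Probe A_54_P2314 averaged 20.4, 34.6 and 34.3 units on the wound arrays, against 17.0, 23.7 and 18.3 on the skin arrays. Here too skin 2 lay above wound 3. A_54_P2314 was well above background on 1 of 3 wound arrays and on 0 of 3 skin arrays, while A_54_P2315 was so on 3 of 3 and 2 of 3.

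The call for miR-145a-5p rested on the processing. It passed under 2 of the 5 scalings, with differences from 0.06 (quantile normalization, limma adjusted p = 0.835) to 0.65. Probe A_54_P2315 alone gave 0.88 (SE 0.21, limma adjusted p = 0.0144) and A_54_P2314 alone gave 0.20 (SE 0.08, limma adjusted p = 0.0892). Both values are bounded by the floor, where A_54_P2315 lay on skin arrays 1 and 5 and A_54_P2314 on every skin array. Before the floor the scaled log2 signals differed by 1.03 for A_54_P2315 and 1.15 for A_54_P2314. The latter probe was not well above background on any skin array, and these 2 values were not tested. A floor 4 times lower gave 1.07 (limma adjusted p = 0.0092), and a floor 4 times as high put all 6 arrays on the floor. By row of the slide the difference was 0.52 in the first row and 0.77 in the second.

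**Figure D3:**
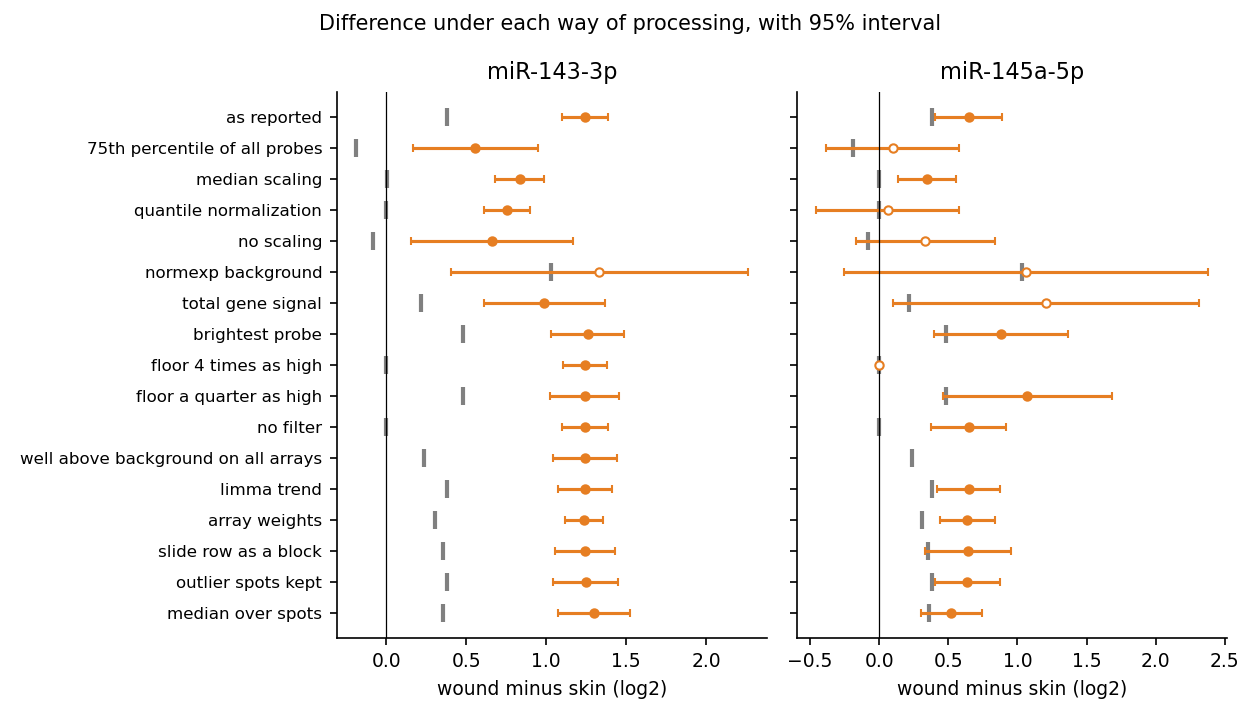
Difference in log2 level, wound minus skin, of miR-143-3p (left) and miR-145a-5p (right) under each way of processing, with limma's 95% interval; filled points have an adjusted p under 0.05, open points do not, and grey ticks mark the median difference of all tested miRNAs in that setting. Left-out arrays, single probes and the authors' table are not drawn, and miR-145a-5p has no point where detection on all arrays was required. The points of miR-143-3p lie between 0.56 and 1.33, while those of miR-145a-5p spread from 0 to 1.21.

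The excess of the miR-143-3p change over that of miR-145a-5p depended on the floor and on the signal used. Within an array, the level of miR-143-3p minus that of miR-145a-5p was 3.32, 3.098 and 3.23 on wound arrays 3, 4 and 6, against 2.60, 2.57 and 2.70 on skin arrays 1, 2 and 5. This difference between different probes is no ratio of abundances and serves only to compare arrays. The groups did not overlap, and the change of miR-143-3p exceeded that of miR-145a-5p by 0.59 (exact two-sided permutation test, p = 0.1, the smallest that 3 against 3 arrays allow, so that this test cannot pass 0.05 at any size). With a floor 4 times lower the excess was 0.17 (p = 0.8, the same exact permutation test), and with Agilent's total signals it was -0.22 (p = 0.7, the same test).

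miR-145a-3p, known as the less stable arm of its precursor, gave no signal. Its 4 probes had 120 spot readings over the 6 arrays, of which 0 were well above background. Probe means on single arrays ran from -1.70 to 11.6 intensity units, under the floor of every array, which was 19.9 to 28.8 units on wound arrays and 31.5 to 44.9 on skin arrays. It was not tested. At this signal a difference between the groups was not detectable.

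**Figure D4:**
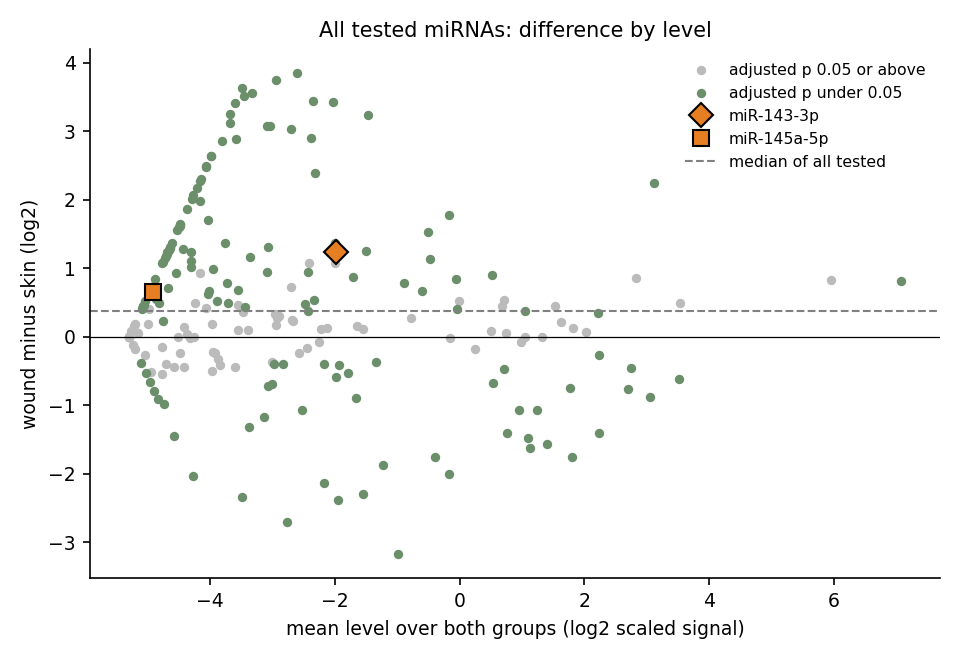
Difference in log2 level, wound minus skin, against the mean level over both groups for the 222 tested miRNAs; green points have a limma adjusted p under 0.05, the dashed line is the median difference of 0.38, and the orange diamond and square are miR-143-3p and miR-145a-5p. miR-143-3p lies at 1.24, and miR-145a-5p at 0.65 near the dim end, where the floor bounds the differences.

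Other miRNAs known from smooth muscle cells moved in both directions. A list of 12 stems, described as favouring the contractile state or limiting growth of these cells, had 8 tested names, of which 4 were higher, 3 lower and 1 did not pass. Its median difference was 0.10, against 0.38 over all tested miRNAs. A list of 8 stems, described as favouring the synthetic state or growth, also had 8 tested names, of which 5 were higher, 2 lower and 1 did not pass, with a median of 0.74. The background shares were 44.1% higher and 20.7% lower, and across the 5 scalings the higher members numbered 2 to 4 in the contractile list and 3 to 5 in the synthetic one. The lower members numbered 3 and 2 in each of the 5.

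Of the higher names on the contractile list, 3 share a seed, and their mature sequences from RefSeq (GRCm38.p6) are given with that seed, bases 2 to 8, in capitals. miR-221-3p, the name whose profile came closest to miR-145a-5p, is shown with them.
miR-322-5p: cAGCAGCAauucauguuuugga
miR-15b-5p: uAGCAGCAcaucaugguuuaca
miR-16-5p: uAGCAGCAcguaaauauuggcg
miR-221-3p: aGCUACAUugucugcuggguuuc
The seed of the first 3 is known to address cyclins and other cell cycle transcripts. miR-322-5p averaged -0.64 ± 0.12 in wound cells and -4.08 ± 0.50 in skin cells (SD, n = 3 each), a difference of 3.44 (SE 0.27, limma adjusted p = 2.3e-04). It exceeded miR-143-3p in size of change under each of the 5 scalings, with differences from 2.75 to 3.44. miR-15b-5p differed by 1.53 and was called under all 5, while miR-16-5p differed by 0.38, was called higher under 2 and had the opposite sign under 3. miR-34a-5p, switched on by p53, differed by 0.53 and had the opposite sign under 3 of the 5.

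The 3 lower names on the contractile list were detected on all arrays. Their groups did not overlap, which held for 69.8% of tested miRNAs in either direction, 48.6% being the share with wound above skin. miR-125b-5p averaged 1.54 ± 0.11 in wound cells and 2.94 ± 0.14 in skin cells (SD, n = 3 each). miR-100-5p, which targets the kinase mTOR, averaged -2.16 ± 0.10 in wound cells and -0.29 ± 0.07 in skin cells. miR-23b-3p averaged -1.17 ± 0.10 in wound cells and 0.82 ± 0.25 in skin cells. Their differences were -1.40, -1.87 and -1.997, and all 3 were called lower under the 5 scalings. miR-204-5p was well above background on 3 of 3 skin arrays and on 0 of 3 wound arrays. Its levels on the wound arrays and on skin array 1 lay at the floor, which bounds its difference of -0.18. It did not pass (limma adjusted p = 0.179). The striated muscle members of that list, the miR-1 and miR-133 names, were detected on none of the arrays.

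On the synthetic list, miR-21a-5p, known to rise in activated fibroblasts and injured arteries, averaged 4.24 ± 0.05 in wound cells and 2.01 ± 0.18 in skin cells, a difference of 2.24 (SE 0.10, limma adjusted p = 2.9e-05), and was called under all 5 scalings. miR-146a-5p, which restrains inflammatory signalling, differed by 1.21 from a skin level at the floor. For miR-31-5p no skin array was well above background. Its wound level stood 2.41-fold above the common floor, and 2.72-fold above the lowest detected signals of the skin arrays themselves, which lie below that floor on average. miR-130a-3p differed by 0.85 (called under 3 of 5) and miR-221-3p, known to target the kinase receptor Kit and the cell cycle inhibitor p27, by 0.63 (called under 1 of 5, with the opposite sign under 2). miR-26a-5p and miR-24-3p were lower, by -1.63 and -1.07, under each of the 5 scalings. miR-21a-3p was well above background on 3 of 3 wound arrays and on 0 of 3 skin arrays. Its signal averaged over probes (-5.60 on the log2 scale in wound cells) lay under the common floor on all arrays, so its difference was fixed at 0. With normexp background correction, 1 higher and 1 lower name passed in each list: miR-322-5p (2.13) and miR-125b-5p (-1.60), and miR-21a-5p (1.89) and miR-26a-5p (-1.63).

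**Figure D5:**
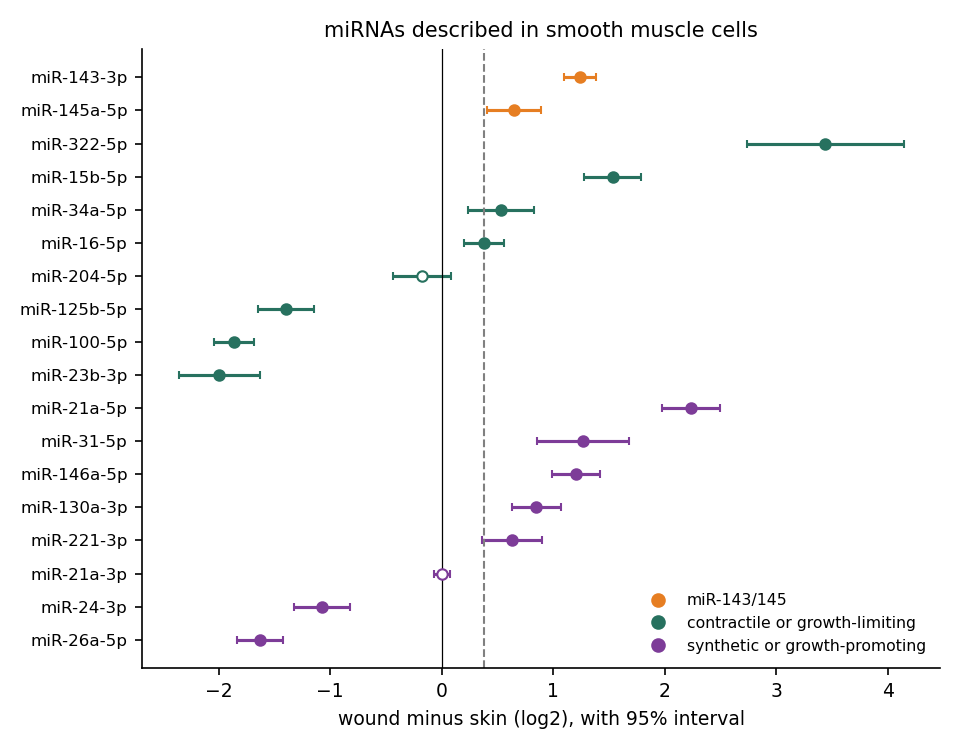
Difference in log2 level, wound minus skin, with limma's 95% interval, for miR-143-3p and miR-145a-5p (orange), 8 tested names of the contractile or growth-limiting list (green) and 8 of the synthetic or growth-promoting list (purple); filled points have an adjusted p under 0.05 and the dashed line is the median of all tested miRNAs. Each list holds values on both sides of 0, from -1.997 to 3.44 and from -1.63 to 2.24.

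Likeness of pattern was measured as the root mean square difference between log2 profiles over the 6 arrays, each centred on its own mean. Closest to miR-143-3p were miR-450a-5p (0.05), miR-382-3p (0.06), miR-376b-5p (0.07), miR-28a-5p (0.09) and miR-155-5p (0.10). Of these 5, 4 lay at the floor on every skin array, so their profiles were bounded there, and miR-28a-5p was the one measured above it on both sides, with a difference of 1.37. Closest to miR-145a-5p were miR-221-3p (0.07), miR-425-5p (0.09), miR-345-5p (0.10), miR-374c-5p (0.10) and miR-423-5p (0.11). The partners themselves were 0.31 apart: miR-145a-5p ranked 38 among 221 miRNAs in likeness to miR-143-3p, where the median distance was 0.62. In the other direction miR-143-3p ranked 65 among 221 in likeness to miR-145a-5p, where the median distance was 0.45, and the profile of miR-145a-5p itself lay on the floor on 2 of 3 skin arrays. These are descriptions over 6 arrays in 2 groups.

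Marker miRNAs of other cell types were mostly dim. Of 12 keratinocyte names 10 were well above background nowhere. The 2 tested ones were lower in wound cells, where neither was detected: miR-203-3p by -1.45, and miR-205-5p by -0.92. By the reported processing, skin cells held at least 2.32 times the miR-203-3p and at least 1.60 times the miR-205-5p of wound cells. With normexp the differences had the opposite sign, 0.95 and 0.97, and did not pass (limma adjusted p = 0.185 and 0.178). The median difference of all tested miRNAs was 1.03 in that setting. The list's summed signal, in multiples of the array's percentile, was -0.0187 to -0.0142 on wound arrays and 0.108 to 0.192 on skin arrays.

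Of 7 blood names 6 were well above background nowhere, and miR-451a was so on 2 skin arrays. The summed blood signal was 0.0174 to 0.0222 on wound arrays and 0.0069 to 0.0260 on skin arrays. Endothelial miR-126-3p differed by 0.50 and did not pass (limma adjusted p = 0.109), with the opposite sign under 3 of the 5 scalings. The summed endothelial signal was 0.0555 to 0.0773 on wound arrays and 0.0363 to 0.0583 on skin arrays. The 9 striated muscle names were detected on none of the arrays, with sums of 0.0184 to 0.0235 on wound arrays and 0.0082 to 0.0171 on skin arrays. The part of keratinocyte, endothelial or mural cells in the result for miR-143-3p and miR-145a-5p was not tested.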

How the data were processed

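Total RNA of 6 sorted preparations was labelled with Cy3 and hybridised to Agilent miRNA arrays, 1 colour and 1 array each, per the labels. Agilent Feature Extraction 10.7.3.1 read the arrays, per the file headers. Its deposited output gives each spot's background-subtracted intensity, not normalized between arrays, with flags. The authors' deposited table holds log2 values; how they were made is not stated in the labels or headers. Over 656 shared names each column equals the log2 total signal of 1 array minus a constant (largest deviation 9.06e-06), and 0 of 6 column numbers match the array titles. Column medians were -12.53 to -11.76.

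Processed signals were averaged over spots without outlier flags, divided by the 75th percentile of their array, over 275 probes detected on every array (over 50% of spots flagged as well above background), averaged over the probes of a miRNA, raised to a floor of 0.0253 and taken to log2. A miRNA was tested when 1 of its probes was detected in this sense on all 3 arrays of either group, which held for 222 of 690. limma 3.58.1 (R 4.3.3, lmFit and eBayes, two-sided) compared the groups, with p-values adjusted by Benjamini-Hochberg over the 222 and called under 0.05. A fold against a group with no detected array is a bound: the bright group's mean against, per dim array, its lowest detected signal or the dim signal if higher. Array precision is limited by their number.

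The 3 members, the smooth muscle and marker lists and the tests were chosen with earlier results of these data known. Named miRNAs are all members, all tested list members and the 5 nearest profiles of each tested member. Alternatives covered scaling, background correction, total signals, probe summary, floor, filter, limma's spread, slide row, each array left out, single probes and the authors' table. 2 more, on outlier spots and the median over spots, were added after the data were seen. Normexp used median signals and an offset of 50, and the median difference of all tested miRNAs was 1.03 in that setting. Mature sequences came from RefSeq, which held 24 of the 27 names looked up. Figures used matplotlib 3.10.9.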

Additional observations from a re-analysis of the deposited data

How the results depend on the processing

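miR-143-3p kept its direction in every alternative except the authors' table read by its column numbers (-0.25), where miR-145a-5p was -0.91 and 0 of 202 miRNAs passed limma (1 at an unadjusted p under 0.05), so that both directions rest on the array titles. It also missed the threshold with normexp (1.33). miR-145a-5p missed it with the percentile of all probes (0.10), quantile normalization (0.0599), no scaling (0.33), normexp (1.06), total signals (1.21), a floor 4 times as high (0) and probe A_54_P2314 alone (0.20). The excess of the miR-143-3p change turned with total signals (-0.22). No calls of the 2 members were lost without any 1 array: the differences were 1.20 to 1.28 and 0.58 to 0.72, and the excess 0.54 to 0.65.

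As reported, 144 miRNAs changed (98 higher, 46 lower, 68.1% higher), against 23 with normexp (16 higher, 7 lower) and 78 with the high floor (44 higher). Higher calls numbered 52 with the percentile of all probes (lower 76, 40.6% higher), 54 with no scaling (50.0% higher) and 59 when detection on every array was required, where miR-145a-5p was not tested. The share was 50.0% with median scaling and 51.1% with quantile normalization. These scalings moved the median of all tested miRNAs by -0.57, -0.46, -0.38 and -0.38 (all probes, none, median, quantile), and normexp moved it by 0.65. Without 1 array, 128 to 142 changed, 86 to 95 higher and 40 to 47 lower.

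Contractile list members called higher numbered 2 with median scaling, total signals, no scaling and the all-probe percentile, 1 with normexp (lower 1) and 0 with the authors' table (lower 0). Lower members of that list numbered 4 with total signals and with a floor 4 times lower. Synthetic list members called higher numbered 3 with the percentile of all probes and no scaling, 2 with the high floor, 1 with normexp (lower 1) and 0 with the authors' table (lower 0). They numbered 6 with the brightest probe of each miRNA and with a floor 4 times lower. Lower members there were 1 with outlier spots kept. Without 1 array the contractile list had 4 higher and 3 to 4 lower, the synthetic list 5 and 2.

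No paired analysis was possible because the labels number the samples 1 to 6 and the groups share no number. With the higher floor miR-145a-5p lay below it on all arrays. Its low signal over background and the floor both limit what can be said of it. On skin array 5 its probe A_54_P2315 averaged 36.3 units and was well above background, yet lay under that array's reported floor of 44.9 units.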
